A study of Mus musculus with 2 samples.

Results

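The 8 CREB and ATF motifs are the recognition sequences, in a catalogue of 579 transcription factor motifs, of the basic leucine zipper factors CREB1, Atf1, ATF7, Creb5, Atf3, CREB3, CREB3L1 and ATF4. They were taken by name, and all 8 names were found in both libraries. The data were single-cell assays of transposase-accessible chromatin on retina of wild-type (WT) mice at the embryonic stage E14.5, made as 2 replicate libraries of 1 group with the droplet method of 10x Genomics. No treatment, mutant or second stage was compared, so the comparisons are between cells within a library. A motif's count in a cell is the accessibility summed over all peaks that hold its letters, so it measures open chromatin and not binding, and motifs with like letters share peaks. Cells were barcodes with at least 300000 motif counts that were also deeper than the same barcode in the other library. This left 890 of 2422 barcodes in replicate 1 and 1051 of 3033 in replicate 2, with median totals of 3519151 and 3523871 motif counts. The libraries had 1828 barcodes in common, and 872 and 925 of the kept barcodes also occurred in the other library, where the copy held a median of 1.77% and 0.789% of the kept total. Nothing in the labels says whether the libraries came from separate animals, so SDs speak only of how far this pair of libraries differs, which can be technical. The p-values compare classes of cells within the libraries and likewise speak only of this pair. The files list motifs and not genes, so the tissue could be viewed only through motif lists, which are described with the clusters and give no independent check.

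CREB1 and its relatives bind as pairs to the cAMP response element (CRE), a palindrome with a CG step at its centre that is common in promoters near the transcription start. CREB1 and Atf1 are switched on by kinases that act below cAMP and calcium. ATF7 and Creb5 are relatives of ATF2, Atf3 is induced by stress, and CREB3 and CREB3L1 are held in the membrane of the endoplasmic reticulum until they are cleaved. ATF4 is made when the integrated stress response lowers general translation, and it pairs with C/EBP factors on a composite site that lacks the CG step. The motif matrices were not used here, so the sites are shown as textbook letters found in mouse promoter windows of RefSeq (build GRCm38.p6), in capitals, with 16 flanking bases on each side, to set the palindrome beside the composite site. Sst, the gene of somatostatin, is the classic CRE promoter, Creb5 is a gene of the family, Chac1 is a known ATF4 target, and Atf3 is both a family gene and induced by ATF4. The first pair holds the CRE and the second pair holds the ATF4-type site on the opposite strand, which reads TGATGCAA on the other side:
Sst: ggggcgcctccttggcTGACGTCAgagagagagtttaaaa
Creb5: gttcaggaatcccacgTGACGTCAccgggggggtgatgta
Chac1: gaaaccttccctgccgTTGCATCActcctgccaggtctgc
Atf3: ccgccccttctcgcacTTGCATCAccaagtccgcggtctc
The Sst stretch lies at chr16:23890869-23890908 on the minus strand and the Creb5 stretch at chr6:53287242-53287281 on the plus strand, with the first base of the CRE 48 and 45 bases before the annotated start. The Chac1 stretch lies at chr2:119351033-119351072 on the plus strand and the Atf3 stretch at chr1:191183420-191183459 on the minus strand, 193 and 110 bases before the start.

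The letters of these sites have different company in promoters. Over 32851 RefSeq windows of 300 bases (250 before to 50 after a start, both strands searched), TGACGTCA was found in 588 (1.79%), and 53.7% of these also held the GC box GGGCGG of SP and KLF factors, which 35.7% of all windows held. The CRE core TGACG, which every full site contains, was in 20.8% of windows, of which 51.4% held a GC box. CCACGTCA, the kind of site that CREB3 factors bind, was in 0.676% of windows, and 50.9% of those held a GC box. The ATF4-type letters TGATGCAA were in 294 windows (0.895%), of which 17.7% held a GC box, and 1 window held both a full CRE and the ATF4-type site. Windows with the full CRE had a median of 22 CG dinucleotides and windows with the ATF4-type site had 4, where the median of all windows was 7. TGACGTCA, TGACG and CCACGTCA themselves hold a CG, and TGATGCAA does not. CAGATG, an E-box of proneural factors that also lacks a CG, was in 5635 windows. Of these, 21.8% held a GC box, and their median was also 4 CG dinucleotides, so such values are not particular to the ATF4-type site. These are letter matches in promoters in general, not peaks of these cells.

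Shares of all motif counts spanned a wide range among the 8 motifs. Atf1 took 0.113% of counts in both libraries and Atf3 took 0.112%. CREB1 took 0.0276% in replicate 1 and 0.0237% in replicate 2, Creb5 took 0.0143% and 0.0152%, and ATF7 took 0.0108% and 0.0115%. CREB3 held 0.0101% and 0.0102%, CREB3L1 held 0.00972% and 0.00908%, and ATF4 was last with 0.00290% and 0.00275%. The values of the 2 libraries did not overlap between any neighbours in this order. The narrowest gap next to its spread was between CREB3 and CREB3L1, with means of 0.0102% and 0.00940% and SDs of 0.00011 and 0.00045 percentage points. ATF4 stood at place 566 of 579 motifs by share. It had a mean of 107.9 counts per cell in replicate 1 and 100.2 in replicate 2, and 1 cell, in replicate 2, had none. A share depends on how many peaks hold the letters and on the search threshold, which is not given in the sources used here, so the order does not rank the factors themselves. No member had the same counts as another motif in all cells. CREB1 differed most between the libraries, with a log2 ratio of replicate 1 over replicate 2 of 0.22, against a median absolute ratio of 0.021 over all motifs. Only 20 motifs had a wider ratio, and with 1 library on each side it has no test.

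**Figure D1:**
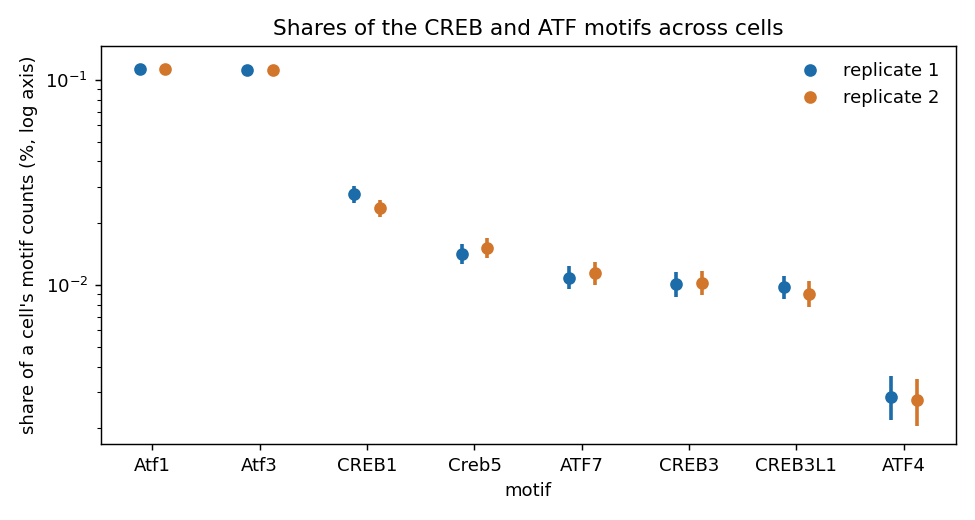
Share of a cell's motif counts (%, log axis) for the 8 motifs, with points for the median cell and lines from the 10th to the 90th percentile of cells, in 890 cells of replicate 1 and 1051 of replicate 2. Atf1 and Atf3 lie highest with the narrowest spread, ATF4 lies lowest with the widest, and CREB1 is the motif whose libraries stand furthest apart.

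ATF4 varied most from cell to cell. Its excess coefficient of variation (CV), the variation of depth-scaled counts across cells beyond counting noise, was 17.6% ± 0.43 (SD, n = 2). The value was 10.9% ± 1.2 for CREB3, 9.89% ± 0.078 for ATF7, 9.72% ± 0.25 for CREB3L1, 9.17% ± 0.43 for Creb5 and 7.61% ± 0.19 for CREB1. Atf1 and Atf3 were steadier, at 4.76% ± 0.027 and 3.64% ± 0.18, and the median of all motifs was 6.19% in replicate 1 and 6.27% in replicate 2. Rare motifs vary more in general: against the trend of log2 CV on mean count over all 579 motifs, ATF4 lay 0.083 ± 0.042 above and CREB3 0.18 ± 0.12 above, and Atf3 lay below at −0.28 ± 0.042. By that measure CREB3 stood at place 145, CREB1 at 155, ATF4 at 210 and Atf3 at 490 of the 579. So ATF4 had the widest variation of the 8, but 209 motifs lay further above the trend. In the single cells of replicate 1 its share ran from 0.000647% to 0.00605%, and in replicate 2 from 0 to 0.00585%.

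Across cells the other 7 motifs went together to differing degrees, and ATF4 kept apart from all of them. The correlations are of depth-adjusted log2 shares over the cells of a library. They describe cells that share a library and motifs that share peaks, and carry no test. ATF7 and Creb5, both of the ATF2 branch, had a Pearson r of 0.74 in replicate 1 and 0.72 in replicate 2. CREB3 and CREB3L1 had 0.58 and 0.47, and Atf1 and Atf3 had 0.49 and 0.52. CREB1 had no single partner, with 0.59 and 0.48 with ATF7 and 0.56 and 0.43 with Creb5. It had 0.47 and 0.41 with Atf3, 0.44 and 0.39 with Atf1, 0.23 and 0.19 with CREB3, and only 0.16 and 0.12 with CREB3L1. Beyond CREB3, CREB3L1 was also low with ATF7 (0.15 and 0.087), Creb5 (0.16 and 0.073) and Atf1 (0.15 and 0.10), and had 0.21 and 0.16 with Atf3. ATF4 had values between −0.09 and 0.04 with each of the other 7 in either library. Outside the 8 motifs, those nearest to CREB1 were FOSL2::JUND(var.2), FOSL2::JUNB(var.2) and FOSL1::JUND(var.2), the CRE-like versions of AP-1 motifs, with a mean r over libraries of 0.76, 0.73 and 0.64. Those nearest to ATF4 were Bhlha15, a basic helix-loop-helix motif of the E-box kind, at 0.23, the homeodomain motif MEIS3 at 0.21, and NEUROD1, a motif of neurogenic factors, at 0.20.

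**Figure D2:**
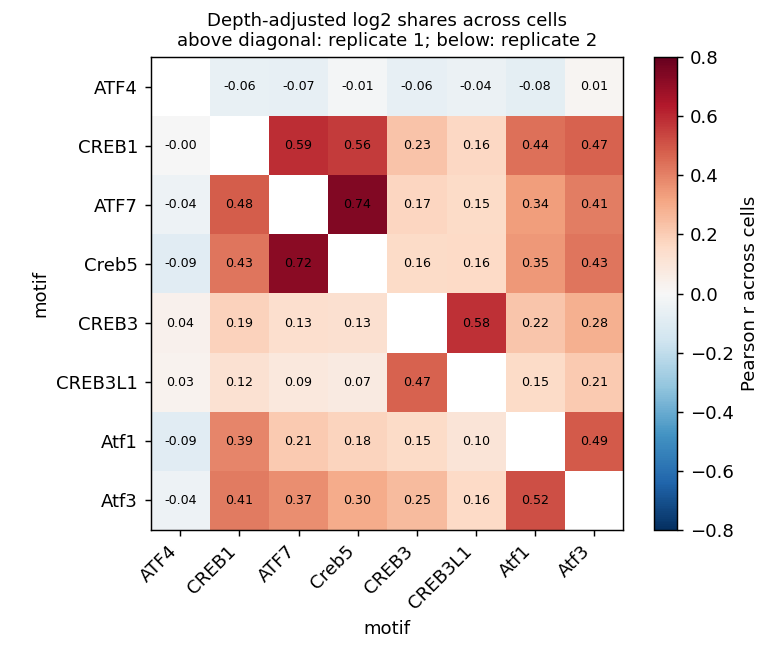
Pearson r between the depth-adjusted log2 shares of each pair of motifs across cells, above the diagonal in replicate 1 (890 cells) and below it in replicate 2 (1051 cells). ATF7 with Creb5 reaches 0.74 and 0.72, CREB3 with CREB3L1 0.58 and 0.47, and the row and column of ATF4 stay near 0.

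The 8 motifs were then set against 3 scores made from other motifs, in which none of the 8 takes part. The progenitor score averages 18 motifs of SOX, TEAD and retinal homeodomain factors, which mark dividing retinal progenitors. The neuronal score averages 14 motifs of proneural factors (NEUROD, NEUROG, ATOH, ASCL and BHLHE kinds) and of ganglion cell factors (POU4F, ISL2, EBF1), which mark cells leaving the cycle and the first neurons. The promoter score averages 20 motifs of GC-rich and other promoter factors (SP, KLF, NRF1, NFY, YY1, ETS kinds). Peaks shared with the 8 motifs still enter the scores, so the scores are not independent of them. Of the promoter score motifs 7 (SP3, SP4, SP8, Klf12, KLF14, NRF1 and YY1) had an r above 0.5 with a member in both libraries. In each of the other scores 0 motifs had. In each library the cells were split into 3 equal classes by a score (296 or 297 cells each in replicate 1, 350 or 351 in replicate 2), and counts summed over the top class were tested against those of the bottom class with edgeR, the library as a block and Benjamini-Hochberg adjustment over 579 motifs. Such a class is a range of a score, not a cell type: within 0.1 SD of the class limits lay 161 to 287 cells per library and score. The progenitor and promoter scores were strongly opposed, with an r across cells of −0.76 in replicate 1 and −0.75 in replicate 2. The neuronal score had an r of −0.073 and −0.091 with the progenitor score and −0.32 and −0.28 with the promoter score. With 2 libraries the fit had 2 residual degrees of freedom for each motif and pooled the spread over all motifs, so small p-values rest on that pooling. By promoter score the pooling was complete, with no spread of a motif's own.

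ATF4 rose with the neuronal score, and CREB1 had no call. ATF4 took 0.00306% of counts in the top class and 0.00276% in the bottom class of replicate 1, and 0.00291% in the top class and 0.00262% in the bottom class of replicate 2. The top classes of both libraries were above both bottom classes, and within each library the middle class lay between, at 0.00288% and 0.00274%. The median single cell of the top class had 0.00305% and 0.00290%, against 0.00268% and 0.00256% in the bottom class, while the ranges of cells overlapped broadly. The fitted difference was a log2 change of 0.156 ± 0.015 (SE), or 1.11-fold (edgeR adjusted p = 3.35e-05). Among the other members CREB3 was higher in the top class, with a log2 change of 0.049 ± 0.0094 (edgeR adjusted p = 0.00151). Thus 2 of 8 members were called higher, where 37.7% of all 579 motifs were. Atf1 was the only member called lower, with a log2 change of −0.030 ± 0.0042 (edgeR adjusted p = 0.000232), where 33.2% of all motifs were. The other 5 did not pass. CREB1 had 0.0274% and 0.0235% in the top class, against 0.0279% and 0.0238% in the bottom class, a log2 change of −0.018 ± 0.0083 (edgeR adjusted p = 0.0747). It passed under 6 alternative settings, with a log2 change between −0.025 and −0.018. Creb5, with −0.024 (edgeR adjusted p = 0.0885), also passed under 6 settings, with −0.046 to −0.023. For CREB3 the call was lost when every cell was thinned to 300000 counts, which gave a log2 change of 0.024 (edgeR adjusted p = 0.394), and the same thinning gave ATF4 0.193 (edgeR adjusted p = 4.15e-06).

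**Figure D3:**
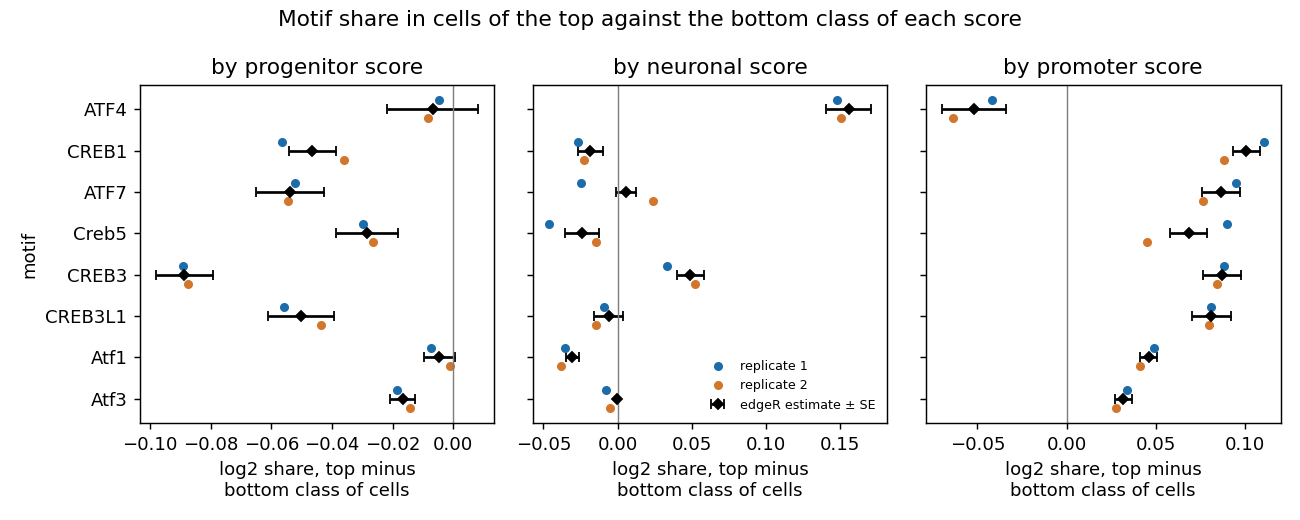
Difference in log2 share between the top and the bottom class of cells by each score (panels), with 1 coloured point per library and a black point for the edgeR estimate with its SE (none is drawn for Atf3 by neuronal score, where none could be computed). ATF4 lies furthest right by neuronal score, at 0.156, and is the motif left of 0 by promoter score, at −0.052.

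The rise of ATF4 was seen with both kinds of neuronal motif, and was wider with the proneural ones. Split by the 9 proneural motifs alone, the log2 difference of ATF4 between top and bottom classes was 0.147 in replicate 1 and 0.130 in replicate 2. Split by the 5 ganglion cell motifs alone it was 0.070 and 0.087. CREB1 had −0.029 and −0.016 by the proneural motifs and −0.033 and −0.041 by the ganglion cell motifs. These splits are given as values, and the gap between the 2 kinds was not tested. The cells of the top neuronal class were also rich in other motifs of differentiating cells. The score of 7 horizontal and amacrine cell motifs (ONECUT, TFAP2, PROX1) had a median of 0.56 and 0.64 SD in the top class, against −0.42 and −0.39 SD in the bottom class, and 6 of these 7 motifs were called higher. Of 4 photoreceptor motifs 3 were called higher, and of 4 microglial motifs 2 were higher and 1 lower. Pigment epithelium motifs (MITF, TFE3, TFEB and TFEC) were higher in 3 of 4 cases, and in the list of endothelial and blood motifs 3 of 6 passed, all of them upward. Over all 579 motifs 37.7% were called higher and 33.2% lower by this score, and these lists are short. Their part in the ATF4 result was not tested. The median total of the top class was 3442492 and 3384516 counts, against 3519493 and 3522520 in the bottom class. Within the middle class of the promoter score the ATF4 change was 0.119 ± 0.033 (edgeR adjusted p = 0.000586), and in the deeper 50% of cells it was 0.150 ± 0.024 (edgeR adjusted p = 5.76e-07).

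With the promoter score the 7 CREB1-type motifs rose together, and ATF4 fell. CREB1 took 0.0288% in the top class and 0.0267% in the bottom class of replicate 1, and 0.0244% in the top class and 0.0230% in the bottom class of replicate 2. The log2 change was 0.10 ± 0.0076, or 1.07-fold (edgeR adjusted p = 9.89e-37). The change was 0.087 ± 0.010 for CREB3, 0.086 ± 0.010 for ATF7, 0.081 ± 0.011 for CREB3L1, 0.068 ± 0.010 for Creb5, 0.046 ± 0.0047 for Atf1 and 0.032 ± 0.0048 for Atf3, each with an edgeR adjusted p of 1.07e-10 or less. So 7 of 8 members were called higher, where 35.4% of all motifs were, and 1 of 8 was called lower, where 38.9% were. The median log2 change of the 7 was 0.081, beside −0.0026 over all 579 motifs. All 7 were higher in the top class in each library, and Creb5 differed most between libraries, with 0.090 and 0.045. The score and the members share peaks, so these calls are not independent of how the score was made. With the score made without its 7 motifs correlated with a member, CREB1 had 0.095 (edgeR adjusted p = 1.22e-35).

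ATF4 took 0.00286% in the top class and 0.00294% in the bottom class of replicate 1, and 0.00270% in the top class and 0.00282% in the bottom class of replicate 2. The log2 change was −0.052 ± 0.018 (edgeR adjusted p = 0.00535), lower in the top class of both libraries. This call was not firm: with a minimum of 1000000 counts per cell the change was −0.030 (edgeR adjusted p = 0.101), and in the middle class of the progenitor score it was −0.035 (edgeR adjusted p = 0.419). With the score made without motifs correlated with a member it was −0.032 (edgeR adjusted p = 0.0924). The pigment epithelium motifs also rose with the promoter score, 4 of 4 of them, where 35.4% of all motifs were called higher. Their list score had a median of 0.46 and 0.38 SD in the top class, against −0.34 and −0.41 SD in the bottom class. Their part in the result was not tested. The log2 change of CREB1 was 0.090 without the cluster of highest promoter score described below (edgeR adjusted p = 4.84e-15), and 0.082 within the middle class of the progenitor score (edgeR adjusted p = 2.22e-05). Within that middle class the membrane-bound pair lost its call, with 0.034 for CREB3 (edgeR adjusted p = 0.0876) and 0.041 for CREB3L1 (edgeR adjusted p = 0.0564). ATF7 had 0.053 there and passed (edgeR adjusted p = 0.0104), as did Creb5, Atf1 and Atf3.

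By progenitor score 6 of the 7 CREB1-type motifs were lower, and ATF4 had no call. CREB3 took 0.00977% in the top class and 0.0104% in the bottom class of replicate 1, and 0.00995% in the top class and 0.0106% in the bottom class of replicate 2. Its log2 change was −0.089 ± 0.0093 (edgeR adjusted p = 9.80e-08). ATF7 had −0.054 ± 0.011, CREB3L1 −0.050 ± 0.011, CREB1 −0.047 ± 0.0077, Creb5 −0.029 ± 0.010 and Atf3 −0.017 ± 0.0042, with edgeR adjusted p-values from 2.51e-05 to 0.0164. The call of Creb5 was not firm: its change was −0.014 with a minimum of 1000000 counts per cell (edgeR adjusted p = 0.191), −0.011 in the deeper 50% of cells (edgeR adjusted p = 0.182) and −0.012 without the cluster of highest promoter score (edgeR adjusted p = 0.203). Hence 6 of 8 members were called lower, where 42.1% of all motifs were, and 0 of 8 were called higher, where 45.1% were. Atf1 had −0.0046 ± 0.0051 (edgeR adjusted p = 0.398). ATF4 took 0.00290% and 0.00278% in the top class, against 0.00291% and 0.00279% in the bottom class, a log2 change of −0.0068 ± 0.015 (edgeR adjusted p = 0.679). Motifs of other cell types were also lower in the top class, 4 of 4 for pigment epithelium, 6 of 7 for horizontal and amacrine cells and 3 of 4 for photoreceptors. Microglial motifs were higher in 1 and lower in 2 of 4 cases, and the 6 endothelial and blood motifs gave 2 higher and 3 lower calls. Their part in the result was not tested.

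Since cells low in progenitor motifs were high in promoter motifs, the progenitor comparison was repeated within the middle class of the promoter score. There CREB1 had a log2 change of 0.0098 ± 0.014 (edgeR adjusted p = 0.552), so that the lower value of CREB1 did not hold and the sign turned. ATF7 had −0.0026, Creb5 0.010 and Atf3 −0.0029, and none of these 3 passed. The pair of membrane-bound factors kept its call, with −0.071 for CREB3 (edgeR adjusted p = 0.0015) and −0.050 for CREB3L1 (edgeR adjusted p = 0.0167), while Atf1 was higher, at 0.022 (edgeR adjusted p = 0.0029). Across cells CREB1 had an r of −0.47 and −0.33 with the progenitor score. In the deeper 50% of cells the r was −0.19 and −0.14 and in the shallower 50% −0.57 and −0.39, and with the promoter score held it was −0.029 and 0.091. With the promoter score CREB1 had 0.60 and 0.51, and 0.48 and 0.37 in the deeper 50%.

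For ATF4, which had no call by progenitor score, the cells were also split by each kind of progenitor motif alone. Split by the 4 TEAD motifs alone, ATF4 was lower in the top class, by log2 differences of −0.092 and −0.106. Split by the 7 SOX motifs alone it had 0.023 and 0.030, and by the 7 homeodomain motifs 0.0024 and 0.023. CREB1 had −0.040 and −0.030 by TEAD, −0.054 and −0.028 by SOX, and −0.053 and −0.042 by homeodomain motifs. These are values per library with no test. The TEAD score was itself lower in the top neuronal class, with a median of −0.87 and −0.85 SD, against 0.48 and 0.47 SD in the bottom class. By total counts alone ATF4 had a log2 difference between the deepest and the shallowest class of 0.065 in replicate 1 and 0.00022 in replicate 2.

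**Figure D4:**
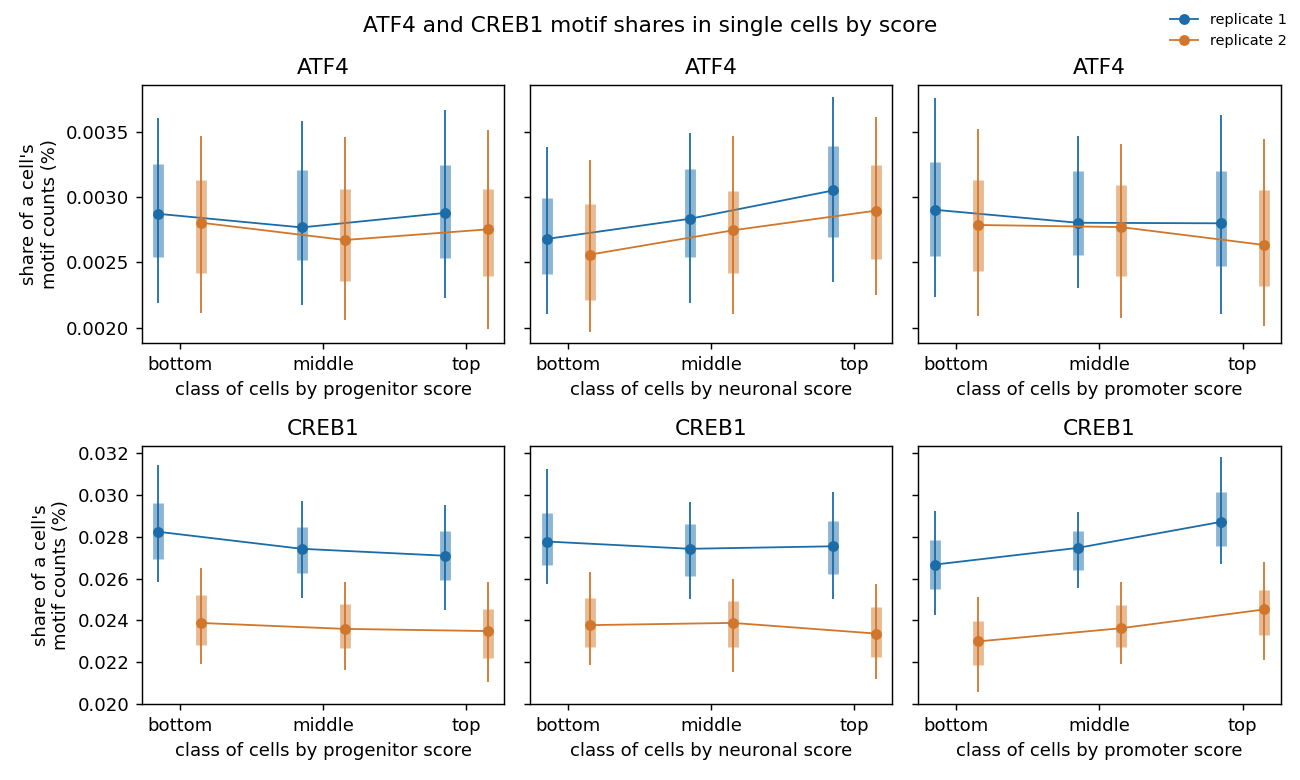
Share of a cell's motif counts (%) of ATF4 (upper row) and CREB1 (lower row) in the bottom, middle and top class of cells by progenitor, neuronal and promoter score. Points are medians over cells, thick bars run from the 25th to the 75th and thin lines from the 10th to the 90th percentile. ATF4 medians climb with the neuronal score, to 0.00305% and 0.00290%, CREB1 medians climb with the promoter score, to 0.0287% and 0.0245%, and the spread of cells within a class exceeds these steps.

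The contrast between ATF4 and CREB1 was tested directly, by fitting counts relative to those of CREB1, a fit chosen after seeing the data. By neuronal score ATF4 rose against CREB1 by a log2 change of 0.174 ± 0.025 (edgeR adjusted p = 5.79e-11), with 0.175 in replicate 1 and 0.174 in replicate 2, and 32.8% of all motifs were called higher than CREB1 in this way. The SE was wider than the 0.015 for the share of ATF4, so the smaller adjusted p is no sign of stronger evidence. How far this fit pooled the spread over motifs was not recorded. By promoter score it fell by −0.152 ± 0.021 (edgeR adjusted p = 2.98e-12), with −0.152 in both libraries, where 83.2% of all motifs were called lower against CREB1. By progenitor score the change was 0.040 ± 0.023 (edgeR adjusted p = 0.111), where 67.0% were called in either direction. CREB1 itself rose by promoter score, so most motifs fell against it there, and the fall of ATF4 sets it apart from CREB1 but not from other motifs. Without the library as a block ATF4 had no call against CREB1 by any of the 3 scores.

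Clusters gave another grouping of the same cells. They were built without the 8 motifs and without 3 more that had an r above 0.7 with a member in both libraries, and 6 clusters resulted. The motifs of the scores and the other CRE-like motifs stayed in. Peaks shared with the 8 motifs therefore still shaped the clusters, so the clusters are not independent of the score results. Cluster 3, with 15.2% and 13.9% of cells, had the highest proneural score, 1.28 and 1.29 SD above the library mean. Cluster 4, with 14.0% and 13.6%, had the highest ganglion cell score, at 1.84 and 1.92 SD. Cluster 2, with 20.8% and 21.9%, had the highest progenitor score, at 0.97 and 0.94 SD. Cluster 6, with 7.0% and 6.7%, had the highest promoter score, at 2.0 and 2.1 SD, and its cells were shallow, with a median total 0.60 and 0.67 times that of the library. Both libraries thus held cells that were high, next to their own library mean, in motifs of retinal progenitors or of neurons. Scores were scaled within a library and a cluster needed at least 20 cells in each, so this was largely set in advance. The clusters were built from these same motifs over both libraries together, so this is no independent check of the tissue. ATF4 took its highest shares in cluster 3, with 0.00307% and 0.00298%, where the libraries as a whole had 0.00290% and 0.00275%. It was at 0.00300% and 0.00287% in cluster 4 and lowest in cluster 1, at 0.00268% and 0.00258%. Cluster 1, with 30.3% and 29.3% of cells, had the lowest neuronal score, −0.67 and −0.64 SD. In cluster 5 the libraries went apart for ATF4, with log2 ratios to the library of 0.081, about as high as in cluster 3, in replicate 1 and of 0.0057 in replicate 2.

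CREB1 and its relatives had their highest shares in cluster 6. CREB1 took 0.0299% and 0.0257% there, a log2 ratio to the library of 0.117 and 0.114, and ATF7 had log2 ratios of 0.115 and 0.101. The log2 ratio was 0.108 and 0.137 for CREB3, 0.082 and 0.108 for CREB3L1, 0.120 and 0.072 for Creb5, 0.043 and 0.035 for Atf1, and 0.039 and 0.037 for Atf3. ATF4 had −0.020 and 0.0054 in that cluster. In the progenitor-rich cluster 2 the log2 ratio was −0.055 and −0.056 for CREB3, its lowest in both libraries, and −0.040 in both for CREB3L1. All 8 members differed across the clusters (edgeR adjusted p from 2.29e-05 to 0.00294), but so did 93.8% of all 579 motifs. ATF4 lost this call with coarser clusters, at a resolution of 0.3 (edgeR adjusted p = 0.057), and ATF7 lost it without the deepest 5% of cells (edgeR adjusted p = 0.0509).

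**Figure D5:**
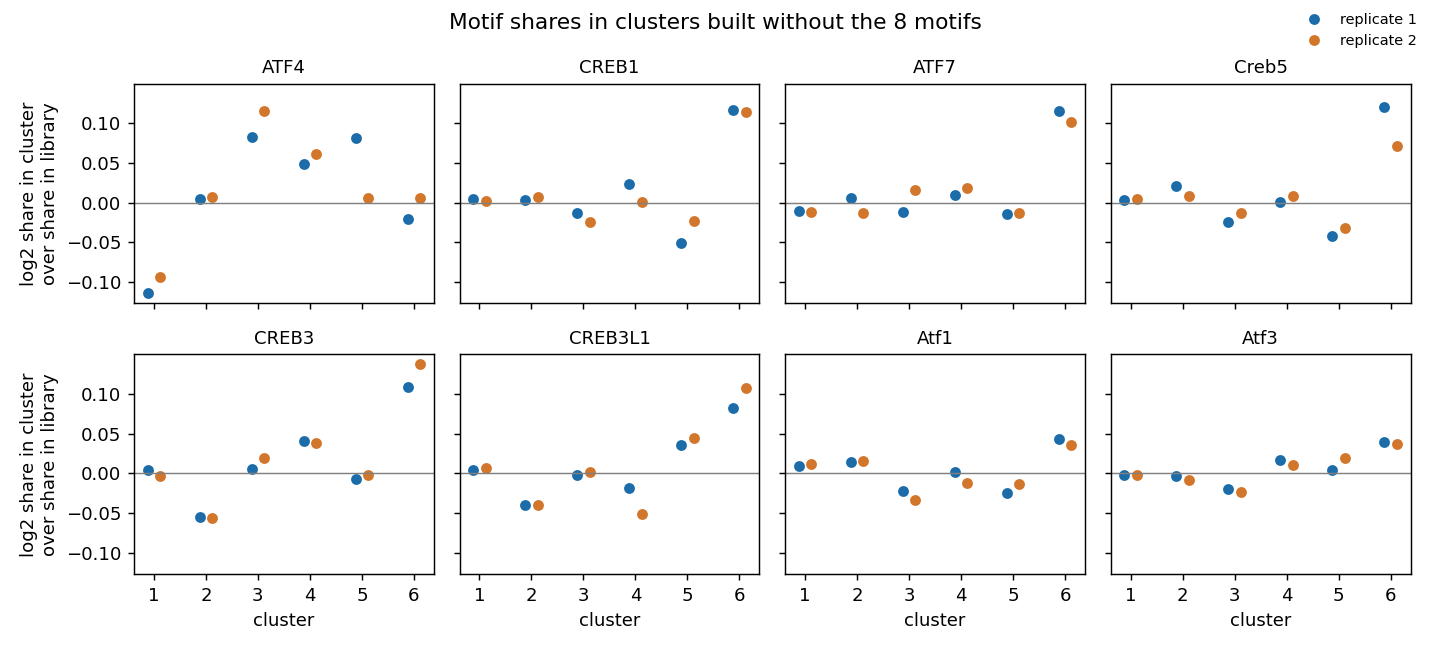
Log2 ratio of each motif's share in a cluster to its share in the whole library, for the 6 clusters built without the 8 motifs, with 1 point per library. ATF4 is highest in cluster 3 (0.083 and 0.116) and lowest in cluster 1, and the other 7 motifs are highest in cluster 6.

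A further 17 motifs were listed by name as CRE-like (Crem, Creb3l2, XBP1, BATF3, GMEB and var.2 forms of AP-1), and their letters were not checked. Of these, 12 were called higher and 2 lower by promoter score, with a median log2 change of 0.048. Over all 579 motifs 35.4% were higher and 38.9% lower. By progenitor score 1 was higher and 13 lower, where 45.1% of all were higher and 42.1% lower. By neuronal score 5 were higher and 1 lower, where 37.7% of all were higher and 33.2% lower, so the higher calls were no more frequent than over all motifs. Gmeb1 rose most by promoter score, at 0.108 ± 0.0054. The 2 called lower by promoter score were JUND(var.2), at −0.054, and JUN(var.2), at −0.042. JUN(var.2) was also the 1 called higher by progenitor score, at 0.041, and had an r with CREB1 of −0.15 and −0.098. JUND(var.2) was also higher by neuronal score, at 0.043 (edgeR adjusted p = 0.000931), and had an r with ATF4 of 0.22 and 0.11 across cells. C/EBP factors are the partners of ATF4 on composite sites, but none of 6 C/EBP motifs was called higher by neuronal score, CEBPA was called lower at −0.095, and their r with ATF4 lay between −0.091 and 0.071. Among them Ddit3::Cebpa, a composite motif of a pair that acts in the stress response, had log2 changes of 0.000073, 0.0055 and 0.0063 by neuronal, progenitor and promoter score, none of which passed. CEBPB and CEBPE had the same values, as had CEBPD and CEBPG. Of 4 motifs of the PAR zipper factors and NFIL3, 2 were called lower and 0 higher by neuronal score. The same shares over all motifs apply to these lists. Of 18 AP-1 motifs not listed as CRE-like 14 were called higher by progenitor score and 12 were called lower by promoter score.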

How the data were processed

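The deposited values are whole-number counts, not normalized: each library is a matrix of motifs by barcode, with software version 1.1.0 per the file headers. Cell Ranger and the build mm10 come from the submitters' processing notes. How peaks and motifs were found is not given in the sources used here.

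From these counts, barcodes with a total of at least 300000 were kept, and of a barcode found in both libraries only the deeper copy. Doublets were not called, and an alternative left out the deepest 5% of cells. Totals of kept cells ran from 309159 to 23789174 in replicate 1 and from 300520 to 18595593 in replicate 2. Per-cell values were log2 of (count + pseudocount 0.5) over the total, with log10 total regressed out; scores are means of these values scaled within a library. Clusters used 15 principal components, 20 neighbours and Leiden resolution 0.5 (scanpy 1.11.5, igraph 0.11.9), with at least 20 cells per library and cluster. Counts summed per library and class of cells were tested with the quasi-likelihood F test of edgeR 4.0.16 (R 4.3.3), TMM scaling, the library as a block, all 579 motifs and a threshold of 0.05; DESeq2 1.42.0 was an alternative. The block rests on all classes of a replicate coming from the same library. The edgeR step was tested on simulated data. For the ATF4 contrast, CREB1 counts served as library sizes.

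Named motifs were the 8 members, the 3 motifs outside them nearest to ATF4 and to CREB1, and motifs of the related lists. The members and lists were chosen with earlier results of these data known. Wilson 95% intervals cover counting error only.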

Additional observations from a re-analysis of the deposited data

Results flagged for a closer look

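The barcodes left out of every comparison still carried ATF4 and CREB1 at shares close to those of the kept cells. In the 1532 left-out barcodes of replicate 1, with 57873148 motif counts in all, ATF4 took 0.00285% (Wilson 95% interval 0.00271 to 0.00299%), against 0.00290% in the kept cells, and CREB1 took 0.0271% (0.0267 to 0.0276%), against 0.0276%. Before rounding the kept-cell share of CREB1 in replicate 1, 0.027585%, lay just above this interval, whose upper end was 0.027561%. In the 1982 left-out barcodes of replicate 2, with 106916585 counts, ATF4 took 0.00279% (0.00269 to 0.00289%), against 0.00275%, and CREB1 took 0.0239% (0.0236 to 0.0242%), against 0.0237%. In replicate 1 ATF7 took 0.0104% (0.0101 to 0.0106%), below the 0.0108% of the kept cells. Creb5 took 0.0137% (0.0134 to 0.0140%) there, below 0.0143%. In replicate 2 the kept-cell shares of both lay within the intervals, as did those of Atf1, Atf3, CREB3 and CREB3L1 in both libraries. The left-out barcodes were set apart because they lie outside the main measurement. Their origin was not tested.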

How the results depend on the processing

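Leaving out the library as a block took most calls away, with values almost the same. Without the replicate block the log2 change of CREB1 by progenitor score was −0.0472, that of ATF4 by neuronal score 0.156 (edgeR adjusted p = 0.116), that of ATF4 and CREB1 by promoter score −0.0515 and 0.101, and that of ATF4 relative to CREB1 0.174 by neuronal and −0.152 by promoter score, none of them called. The members called were then 1 by progenitor, 0 by neuronal and 3 by promoter score and 3 across clusters, and the motifs called over all 579 were 231, 87, 138 and 382, against 505, 410, 430 and 543 with the block. With the second score held, CREB1 by progenitor score had 0.00976 and ATF4 by promoter score had −0.0351, both without a call. In that setting 3 members were called by progenitor and 5 by promoter score. Over all 579, 405 motifs were called by progenitor and 276 by promoter score. CREB3 and CREB3L1 lost their promoter calls there, and ATF7, Creb5 and Atf3 their progenitor calls. The call of ATF4 by promoter score was also lost with the deeper 50% of cells (−0.0437), a minimum of 1000000 counts (−0.0302), thinning (−0.0490) and a score without correlated motifs (−0.0325), with edgeR adjusted p between 0.00250 and 0.565 over all its alternatives. CREB1 by neuronal score gained a call without TMM (−0.0246), with DESeq2 (−0.0204), without the promoter-rich cluster (−0.0184), without the deepest 5% of cells (−0.0196), without depth regression (−0.0200) and with 4 classes in place of 3 (−0.0236), and in the first 5 of these 5 members were called. Each library alone, which allows no test, gave ATF4 by neuronal score 0.148 to 0.151 and CREB1 −0.0264 to −0.0227. ATF4 by progenitor score had no call under any setting. The promoter-rich cluster, the deeper 50% and the fit relative to CREB1 were chosen after seeing the data. The excess CV of all 8 members was lower with the minimum of 1000000 counts, at 15.5% for ATF4. The share of higher among called motifs moved by over 10 percentage points by promoter score and was 61.6% without the block, against 47.7% with it. The cause of these shifts was not tested, and holding the second score also narrowed the cells compared. Counting noise matters for rare motifs such as ATF4, with means of 107.9 and 100.2 counts per cell.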
